A study of Mus musculus with 4 samples.

Results

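A group of 10 genes of the unfolded protein response (UPR) and of protein folding in the endoplasmic reticulum (ER) was followed in splenic B cells of mice with intact or conditionally deleted *Nsd1*, the gene of a histone methyltransferase. They were taken by symbol, and the 10 symbols matched 11 of the 55401 gene rows of the count tables, because *Ddit3* has 2 rows. RNA-seq was done on B220+ B cells sorted from the spleen of C57BL/6J mice, with 2 libraries from NSD1B WT mice (Mb1-Cre+ NSD1+/+) and 2 from NSD1B KO mice (Mb1-Cre+ NSD1fl/fl). All these mice carried Mb1-Cre, which is driven by the *Cd79a* locus and is therefore active from early B cell development on. The study's methods describe littermate controls and young adult mice of both sexes, and the labels give neither the sex nor the age of the mouse behind a library. Nothing in the labels tells if the 2 libraries per group were made from separate mice, so every p-value here measures only the spread between these libraries, largely pooled over genes. That spread may be technical.

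The UPR is the set of pathways by which a cell answers unfolded protein in the ER. It starts from a small set of sensors in the ER membrane. IRE1, the product of *Ern1*, cuts the mRNA of *Xbp1* so that it encodes an active transcription factor. PERK, the product of *Eif2ak3*, phosphorylates eIF2alpha, which lowers general translation and raises that of *Atf4*, and ATF4 in turn drives *Ddit3*, the gene of CHOP. ATF6 is carried to the Golgi, where proteases release its transcription factor part. Their targets include the ER chaperones, chief among them BiP, the product of *Hspa5*, which also binds the sensors and holds them inactive. B cells are known for this pathway because the step to the antibody-secreting plasma cell needs XBP1.

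The sequences behind these steps show what a count per gene can and cannot tell. IRE1 removes a short segment from the *Xbp1* mRNA, and a search of the main transcript for 26 bases that follow one CNGCAG and end in another found it in exon 4, at chr11:5524282-5524307 on the plus strand of GRCm38. It is printed here in capitals with 30 bases of coding sequence on each side, taken from the GENCODE M21 transcript.
Xbp1: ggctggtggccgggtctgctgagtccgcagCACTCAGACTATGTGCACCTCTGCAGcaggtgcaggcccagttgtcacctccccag
Without these 26 bases the open reading frame of the main transcript grew from 267 to 371 residues. The same search also met a stretch in exon 1 whose removal shortened the frame to 73 residues. Since the deposited counts are per gene, the *Xbp1* values below add the spliced and unspliced forms and say nothing of their ratio.

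The target genes are reached through short DNA elements. The ER stress response element (ERSE), read by ATF6 and XBP1 together with NF-Y, was searched as CCAAT and CCACG with 9 bases of any kind between them, on both strands of the RefSeq promoters of GRCm38.p6, from 250 bases before to 50 bases after each start. It was found in 39 of 32851 promoters (0.119%). Of the 9 members with a promoter in that table, *Hspa5*, *Hsp90b1* and *Pdia6* hold it. The 250 bases before their starts are shown because these 3 genes did not move alike between the genotypes, with the ERSE in capitals. They lie at chr2:34771840-34772089 on the plus strand, at chr10:86705445-86705694 on the minus strand and at chr12:17266339-17266588 on the plus strand.
Hspa5: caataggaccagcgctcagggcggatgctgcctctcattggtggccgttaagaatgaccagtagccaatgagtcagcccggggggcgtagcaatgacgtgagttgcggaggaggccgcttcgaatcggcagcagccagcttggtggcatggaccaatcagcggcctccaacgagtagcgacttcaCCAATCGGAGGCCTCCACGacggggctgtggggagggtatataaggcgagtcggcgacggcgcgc
Hsp90b1: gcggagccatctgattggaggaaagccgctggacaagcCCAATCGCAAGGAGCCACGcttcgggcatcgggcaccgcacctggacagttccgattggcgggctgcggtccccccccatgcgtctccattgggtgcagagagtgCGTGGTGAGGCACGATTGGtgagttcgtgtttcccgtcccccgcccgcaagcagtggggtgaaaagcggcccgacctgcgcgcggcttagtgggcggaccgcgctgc
Pdia6: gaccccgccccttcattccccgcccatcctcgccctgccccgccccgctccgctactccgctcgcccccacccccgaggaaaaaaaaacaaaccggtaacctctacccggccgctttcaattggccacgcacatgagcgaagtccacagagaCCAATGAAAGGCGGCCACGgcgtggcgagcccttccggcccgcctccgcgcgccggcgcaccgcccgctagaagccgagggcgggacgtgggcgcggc
Counted from the start, where -1 is the base before it, the element begins at -65 in *Hspa5*, at -98 in *Pdia6* and at -212 in *Hsp90b1*, where a second one lies on the opposite strand from -107. The *Hspa5* promoter also holds TGACGTG, the core read by ATF6 and XBP1, from -157, a word found in 661 promoters (2.01%). Neither ERSE-II, ATTGG and CCACG with 1 base between them, nor the ATF4 and CHOP elements TGATGNAAN and TTGCATCA was met in a promoter of a member. These 3 words were found in 12, 1299 and 294 promoters (0.0365%, 3.95% and 0.895%).

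Each library held 6769118 to 7566834 counts on genes, and 12383 to 13084 genes were detected in a library. *Nsd1*, the targeted gene, had 497 and 480 counts in NSD1B WT and 284 and 280 in NSD1B KO, and fell by 0.74 on the log2 scale (standard error 0.11, adjusted p = 8.08e-08 in edgeR's quasi-likelihood test). A count per gene also holds reads from the exons that the deletion leaves in place. In the same test 9119 of 11657 genes (78.2%) were past an adjusted p of 0.05 and a fold of 1.2, the rule for a call used throughout. Of these genes, 37.1% were called higher and 41.1% lower in NSD1B KO. The 8 B cell markers were all detected and summed to 12634 to 12853 CPM (counts per megaread of the TMM-scaled library size) in NSD1B WT and 11189 to 12180 CPM in NSD1B KO. Of them 5 were called lower and 1 higher. *Pax5*, the transcription factor of B cell identity, had 42.9 ± 5.47 CPM in NSD1B WT and 4.39 ± 0.310 CPM in NSD1B KO (SD, n = 2). The higher one was *Ebf1*, with means of 48.5 CPM in NSD1B WT and 81.6 CPM in NSD1B KO. *Cd79b*, the largest part of the sum, had means of 6825 and 8159 CPM and was not called, while *Cd79a* fell from 1988 to 789 CPM. Single markers given with values here were picked after these were seen. The libraries also differed in summed markers of other cells. The 5 erythroid markers tested summed to 35.6 and 39.6 CPM in NSD1B WT and to 1689.8 and 1944 CPM in NSD1B KO. The 8 myeloid markers, led by *Lyz2*, summed to 4605 and 4709 CPM against 5809 and 6157 CPM, the 8 T cell markers to 42.7 and 45.1 against 70.5 and 74.3, and the 5 NK cell markers to 55.8 and 59.6 against 88.4 and 88.5. Within these lists markers went both ways, since *Lck* fell from 32 and 42 counts to 3 and 4 and *Klrb1c* from 26 and 21 to 0, and *Nkg7* gave most of the NK cell sum. The 7 markers of plasmacytoid dendritic cells, of which *Ly6d* gave nearly all counts and *Siglech* none, summed to 9366 to 10243.5 CPM in NSD1B WT and 9887 to 9915 in NSD1B KO. The 8 genes of handling stress summed to 74.4 and 75.4 CPM against 50.4 and 53.7, and *Hspa1a* and *Hspa1b* were at 0 in all libraries. *Xist* had 47 and 62 counts in NSD1B WT and 1 and 2 in NSD1B KO. The 4 Y-linked genes were counted in all libraries and did not move alike, as *Eif2s3y* went from a mean of 138.5 to 25.4 CPM while *Kdm5d* (11.5 to 47.7 CPM), *Ddx3y* and *Uty* were called higher. Except for the plasmacytoid dendritic cell markers, whose ranges overlapped, these sums differed by genotype without overlap, and their part in the results below was not tested. In bulk RNA, fewer cells of a type and less RNA per cell cannot be told apart.

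All 10 genes passed the filter on low counts, *Ern1* through its NSD1B KO libraries alone. Of these, 3 genes, *Hspa5*, *Hsp90b1* and *Ern1*, were called higher in NSD1B KO, 3 genes, *Xbp1*, *Pdia6* and *Dnajb9*, were called lower, and *Atf4*, *Atf6*, *Ddit3* and *Pdia4* were not called. The 6 calls among 10 genes stand beside the 78.2% called among all genes, so the members were not called more often than genes at large. In 8 of the 10 the libraries of the genotypes did not overlap in CPM, against 88.1% of the tested genes. In the fit that takes out each library's trend with exon length and GC content, 4 members were called higher and 1 lower. Of all 11657 tested genes, that fit called 4816 higher and 4214 lower, against 4324 and 4795 in the main fit.

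**Figure D1:**
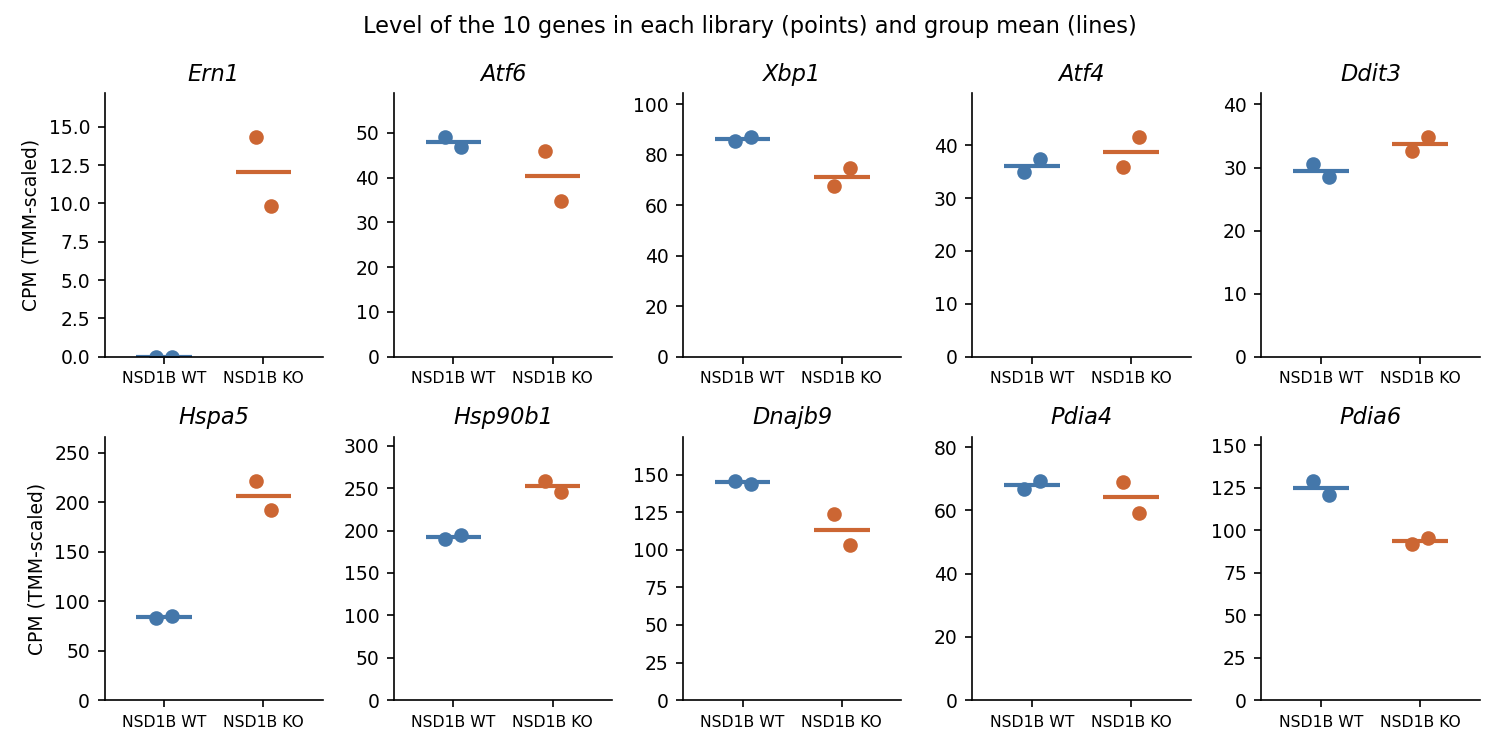
Level of each of the 10 genes in CPM (scaled by TMM, linear axis from 0) in the 2 NSD1B WT and 2 NSD1B KO libraries (points), with the group mean (line). *Hspa5* rose from 83.7 to 206 CPM and *Ern1* from 0 to 12.1 CPM, *Dnajb9*, *Pdia6* and *Xbp1* fell, and the groups overlap for *Atf4* and *Pdia4*.

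*Hspa5* (chr2:34771970-34777547 of GRCm38, plus strand) encodes BiP, the Hsp70 chaperone of the ER. It was counted 592 and 618 times in NSD1B WT and 1593 and 1289 times in NSD1B KO, which is 82.8 and 84.5 CPM against 221 and 192 CPM. Both NSD1B KO libraries lay far above both NSD1B WT libraries, and the libraries of NSD1B KO differed more from each other than those of NSD1B WT. The mean rose from 83.7 ± 1.2 to 206 ± 21.1 CPM (SD, n = 2 libraries each), a fold of 2.47 with a 95% interval of 2.17 to 2.80 (standard error 0.09 on the log2 scale, adjusted p = 9.08e-18 in edgeR's quasi-likelihood test). With limma-voom the adjusted p of *Hspa5* was 1.98e-04. It was called higher under each of the 15 alternative settings tried, with log2 fold changes of 1.19 to 1.41. Of the 1478 genes with a level within 2-fold of that of *Hspa5*, 13.9% had an absolute change as large or larger. The same share was 53.1% for *Hsp90b1*, 62.7% for *Pdia6*, 65.7% for *Dnajb9* and 78.5% for *Xbp1*, each among genes of its own level.

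*Hsp90b1* (chr10:86690209-86705509, minus strand) encodes GRP94, the Hsp90 chaperone of the ER. Its level was 190 and 195 CPM in NSD1B WT and 259 and 246 CPM in NSD1B KO, with no overlap. It rose 1.31-fold (95% interval 1.17 to 1.47, adjusted p = 2.87e-05 in edgeR's quasi-likelihood test). Of its exon length, 10.3% (415 bp) is shared with 1810014B01Rik on the opposite strand, and as the strand setting of the counting is not given in the sources used here, reads in that stretch are uncertain. 1810014B01Rik itself had 81.4 ± 6.01 CPM in NSD1B WT and 81.6 ± 6.28 CPM in NSD1B KO (SD, n = 2, adjusted p = 0.970 in the same edgeR test).

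*Hspa5* and *Hsp90b1* are textbook partners in their regulation, and both promoters hold the ERSE, yet they rose by different amounts. Their ratio within a library does not depend on any scaling between libraries. The count of *Hspa5* was 0.435 and 0.434 times that of *Hsp90b1* in the NSD1B WT libraries and 0.856 and 0.779 times in the NSD1B KO libraries. The log2 fold changes of the pair differed by 0.91, with a standard error of 0.12 when the 2 fitted errors are taken as independent.

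*Dnajb9* (chr12:44205559-44210326, minus strand) encodes ERdj4, a J-domain partner of BiP and a target of XBP1. Its level was 146 and 144 CPM in NSD1B WT and 124 and 103 CPM in NSD1B KO. The groups did not overlap, but the 2 NSD1B KO libraries lay about as far from each other as the nearer of them lay from NSD1B WT. It fell by 0.35 on the log2 scale (fold 0.784, 95% interval 0.689 to 0.891, adjusted p = 5.76e-04 in edgeR's quasi-likelihood test). Without NSD1B KO replicate 2 the change was -0.22 and no longer past a fold of 1.2. The count of *Hspa5* was 0.568 and 0.587 times that of its partner *Dnajb9* in NSD1B WT and 1.79 and 1.86 times in NSD1B KO.

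*Pdia6* (chr12:17266545-17284770, plus strand) and *Pdia4* (chr6:47796141-47813430, minus strand) encode members of the protein disulfide isomerase family, which make and exchange disulfide bonds in new secretory proteins. *Pdia6* had 129 and 121 CPM in NSD1B WT and 91.9 and 95.3 CPM in NSD1B KO. The groups were well apart, and the fall was by 0.42 on the log2 scale (fold 0.748, 95% interval 0.658 to 0.850, adjusted p = 5.86e-05 in edgeR's quasi-likelihood test). After removal of the trend with length and GC content it was -0.22, short of a fold of 1.2. *Pdia4* had 66.9 and 69.4 CPM in NSD1B WT and 69.1 and 59.3 CPM in NSD1B KO, and the groups overlapped. Its fold was 0.943 with a 95% interval of 0.813 to 1.09 (adjusted p = 0.467 in the same test), and this interval reaches past a 1.2-fold decrease but not to a 1.2-fold increase. Within a library the count of *Hspa5* went from 0.641 and 0.699 times that of *Pdia6* to 2.41 and 2.01 times, and from 1.24 and 1.22 times that of *Pdia4* to 3.21 and 3.23 times.

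*Ern1* (chr11:106394650-106487852, minus strand), the gene of the sensor IRE1, had 0 counts in both NSD1B WT libraries and 103 and 66 in NSD1B KO, or 14.3 and 9.81 CPM. A count of 0 in both libraries allows up to 3 counts over the group, or 0.208 CPM, and against this limit *Ern1* was at least 58.5-fold higher in NSD1B KO. The limit covers counting error only. The adjusted p was 5.20e-15 in edgeR's quasi-likelihood test and 4.16e-06 with limma-voom. As *Ern1* passed the filter on low counts only through the genotype where it is high, these p-values add no support beyond the counts. The same form was shared by many genes, since 681 had no count in NSD1B WT and at least 50 counts over NSD1B KO, and 1016 had the reverse. Whether such zeros reflect absent RNA or the making of the count tables was not tested, and every fold given here as "at least" rests on them. *Ern1* remained the lowest of the 10 genes in NSD1B KO.

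*Xbp1* (chr11:5520659-5525893, plus strand), the transcription factor downstream of IRE1, had 85.2 and 86.9 CPM in NSD1B WT and 67.4 and 74.9 CPM in NSD1B KO. It was lower in both NSD1B KO libraries, by 0.27 on the log2 scale (fold 0.827, 95% interval 0.719 to 0.950, adjusted p = 0.0112 in edgeR's quasi-likelihood test). This was the largest adjusted p among the 6 calls. The call was lost by the Wald test of DESeq2 (adjusted p = 0.1045) and without NSD1B WT replicate 1, NSD1B WT replicate 2 or NSD1B KO replicate 1, where the change was -0.26, -0.24 and -0.20. With the trend with exon length and GC content removed the change was 0.10, opposite in direction and not called.

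*Atf6* (chr1:170704674-170867771, minus strand), the gene of the third sensor, had 49.0 and 46.8 CPM in NSD1B WT and 45.9 and 34.8 CPM in NSD1B KO. Its fold was 0.844, with a 95% interval of 0.707 to 1.01 (adjusted p = 0.0743 in edgeR's quasi-likelihood test). *Atf6* was thus not called, but the result depended on the library kept and on the scaling and filter. The change was -0.46 without NSD1B KO replicate 1 and -0.06 without NSD1B KO replicate 2. With all libraries, *Atf6* was called lower with library size alone (-0.33), upper quartile scaling and the 1 CPM filter on every library (-0.29 each).

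*Atf4* (chr15:80255184-80257541, plus strand) and *Ddit3* (chr10:127290774-127296288, plus strand) encode transcription factors of the PERK branch. *Atf4* had 34.8 and 37.3 CPM in NSD1B WT and 35.9 and 41.5 CPM in NSD1B KO. The groups overlapped, and its fold of 1.07 had a 95% interval of 0.889 to 1.29 (adjusted p = 0.504 in edgeR's quasi-likelihood test). With the length and GC trend removed *Atf4* was called higher, with a change of 0.50 (adjusted p = 0.000656). *Ddit3*, whose protein CHOP promotes cell death under lasting stress, had 30.5 and 28.5 CPM in NSD1B WT and 32.7 and 34.8 CPM in NSD1B KO. Its libraries did not overlap, but the fold of 1.14 was not called (95% interval 0.939 to 1.39, adjusted p = 0.205 in the same test). Its second row, a model of 105 bp that lies wholly inside the exons of the first, had 0 counts in all libraries. ATF4 is controlled largely at translation, which RNA counts do not measure.

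**Figure D2:**
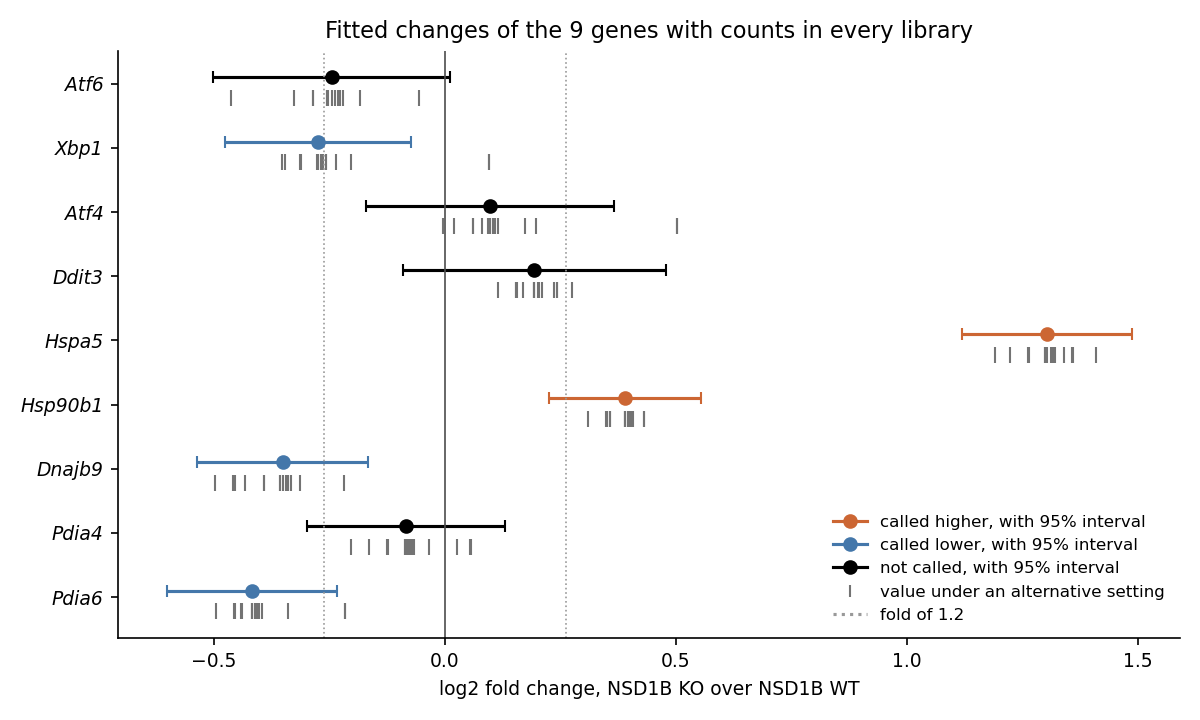
Fitted log2 fold change of NSD1B KO over NSD1B WT for the 9 genes with counts in every library (points, with 95% intervals, colour giving the call), and below each point the values under the 15 alternative settings (grey ticks). Dotted lines mark a fold of 1.2. *Hspa5* lies farthest from 0, *Hsp90b1* lies at 0.39 on the log2 scale, *Xbp1*, *Dnajb9* and *Pdia6* lie between -0.42 and -0.27, and the ticks of *Xbp1*, *Atf4* and *Pdia4* cross 0.

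Levels of different genes can be set side by side only per length of exon. In NSD1B WT the CPM per kb ran from *Dnajb9* (56.8), *Hsp90b1* (47.8), *Pdia6* (33.4), *Pdia4* (28.4), *Xbp1* (26.5), *Hspa5* (19.8), *Ddit3* (17.2) and *Atf4* (15.3) down to *Atf6* (5.19) and *Ern1* at 0. The ranges of neighbours in this order did not overlap between the 2 libraries. In NSD1B KO *Hspa5* stood second, at 48.8 ± 4.98 CPM per kb (SD, n = 2), after *Hsp90b1* (62.6) and before *Dnajb9* (44.5), with which it overlapped. The ranges of *Pdia4* (26.8) and *Pdia6* (24.99) overlapped as well. *Xbp1* (21.9), *Ddit3* (19.7), *Atf4* (16.4), *Atf6* (4.37) and *Ern1* (1.48) followed without overlap. By its mean *Hspa5* thus moved from place 6 to place 2, where it was not apart from *Dnajb9*. The genes of the transcription factors and sensors kept their order among themselves.

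**Figure D3:**
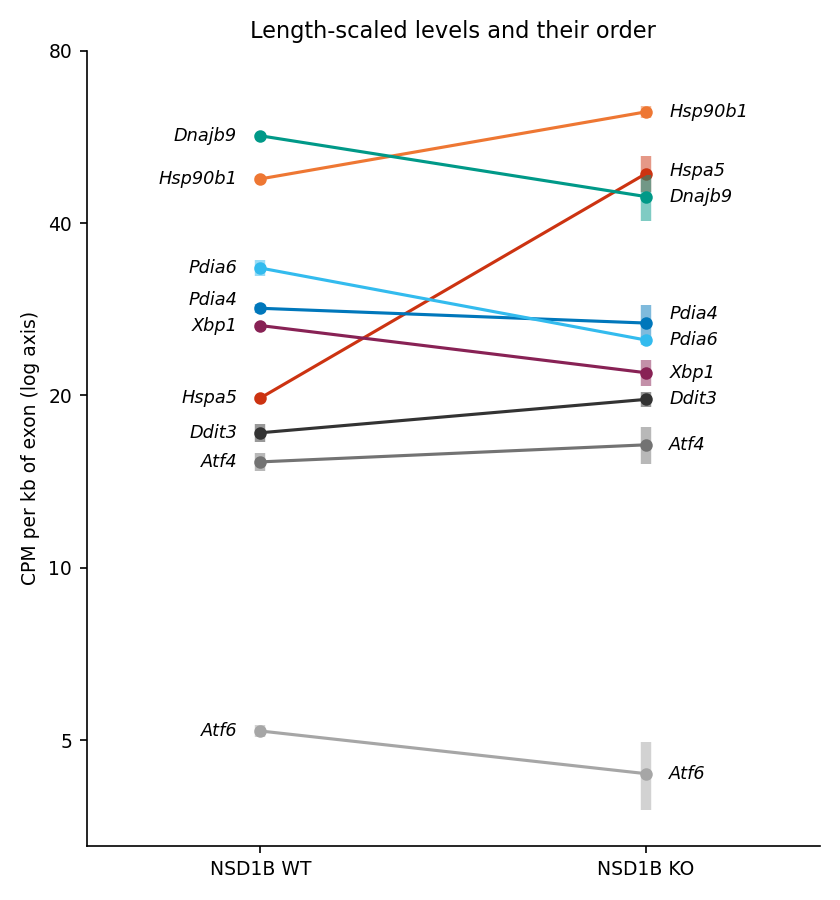
CPM per kb of annotated exon (log axis) in NSD1B WT and NSD1B KO, as the mean of 2 libraries (points joined by lines) with the range between the libraries (shaded bars). *Hspa5* rises from 19.8 to 48.8 and crosses *Xbp1*, *Pdia4*, *Pdia6* and *Dnajb9*. *Ern1* is left out because it is at 0 in NSD1B WT.

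The rest of the pathway was described through 6 lists by role, and 140 of their genes could be tested, of which 50 (35.7%) were called higher and 54 (38.6%) lower. Their median log2 fold change was 0.00, against -0.10 for all tested genes, and the shares called lay close to the 37.1% and 41.1% among all genes. After removal of the length and GC trend the counts in the lists were 61 and 48. All tested genes then moved the same way, from 4324 higher and 4795 lower to 4816 and 4214. Each list held genes called higher and genes called lower. The lists are given by their counts, and no list was tested as a set.

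Of 17 sensors and direct partners tested, 4 were called higher and 11 lower, with a median log2 fold change of -0.80. *Eif2ak3*, the gene of PERK, was counted 164 and 188 times in NSD1B WT and 609 and 535 times in NSD1B KO, and rose by 1.75 on the log2 scale (standard error 0.12, adjusted p = 3.81e-18 in edgeR's quasi-likelihood test). PERK phosphorylates eIF2alpha, and *Ppp1r15a*, the gene of GADD34 that brings a phosphatase to it, went the other way. It had 155 and 174 counts in NSD1B WT and 0 in both NSD1B KO libraries, at least 106-fold lower (adjusted p = 1.18e-19 in the same test). *Mbtps1*, the gene of the first protease that cleaves ATF6, fell from 258 and 262 counts to 86 and 77 (log2 fold change -1.62, adjusted p = 4.39e-12). *Mbtps2*, the gene of the second, had 0 counts in all libraries, which allows up to 0.208 CPM in NSD1B WT and 0.215 CPM in NSD1B KO. *Rtcb*, the gene of the ligase that rejoins the cut *Xbp1* mRNA, had 362 and 375 counts in NSD1B WT and 184 and 159 in NSD1B KO and fell by 1.05 on the log2 scale (adjusted p = 1.04e-09). *Creb3l1* and *Creb3l2*, which encode ER-bound transcription factors related to ATF6, had 95 and 100 and 18 and 36 counts in NSD1B WT and none in NSD1B KO, at least 62.6-fold and 17.3-fold lower.

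Of 26 chaperones and cofactors tested, 10 were called higher and 9 lower, with a median of 0.04. Among the partners of BiP, *Dnajc3*, a J-domain protein, went from 407 and 461 counts to 955 and 786 (log2 fold change 1.06, adjusted p = 1.80e-13 in edgeR's quasi-likelihood test). *Sdf2l1*, a cofactor of the J-domain protein ERdj3, went from 234 and 219 to 431 and 330 (0.80, adjusted p = 2.36e-07). *Dnajb11*, the gene of ERdj3, was not called, with 64.9 ± 3.75 CPM in NSD1B WT and 65.0 ± 5.54 CPM in NSD1B KO (SD, n = 2), and was called higher only where the length and GC trend was removed (0.28). *Hyou1*, a nucleotide exchange factor for BiP, had 53 and 85 counts in NSD1B WT and 0 and 4 in NSD1B KO (adjusted p = 1.91e-11), and *Dnajc1*, another J-domain gene, had 111 and 80 counts against none, at least 61.3-fold lower. *Sil1*, another cofactor gene of this list, went the other way, from 9 and 3 counts to 91 and 73 (log2 fold change 3.80). It is named here after its values were seen. The lectin chaperones that hold glycoproteins during folding parted. *Calr*, the gene of soluble calreticulin, rose with a log2 fold change of 1.12 (adjusted p = 3.31e-14), and *Canx*, the gene of its membrane-bound relative calnexin, fell by 0.76 on the log2 scale (adjusted p = 2.90e-11). *Uggt1*, which returns misfolded glycoproteins to them, fell by 2.20 on the log2 scale, from 485 and 529 counts to 119 and 94. *Mogs*, the glucosidase that starts glycan trimming, rose with a log2 fold change of 1.84.

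Of 17 ER oxidoreductases, 4 were called higher and 8 lower, with a median of -0.18. The genes of the isomerases PDI and ERp57 both fell. *P4hb*, the gene of PDI itself, had 133 ± 1.27 CPM in NSD1B WT and 56.1 ± 1.24 CPM in NSD1B KO (SD, n = 2, log2 fold change -1.25, adjusted p = 2.93e-16 in edgeR's quasi-likelihood test). *Pdia3*, the gene of ERp57, had 238 ± 12.1 and 147 ± 9.76 CPM (log2 fold change -0.69, adjusted p = 3.60e-10). *Pdia6* was also called lower and *Pdia4* was not called. Over the whole list 47.1% of the tested genes were called lower and 23.5% higher, against 41.1% and 37.1% of all tested genes. *Txndc11* fell by 1.38 on the log2 scale and *Tmx1*, a membrane-bound family member, rose with 0.41. *Tmx4*, another of the family, had 0 and 2 counts in NSD1B WT and 262 and 259 in NSD1B KO, and is named here after its values were seen. *Selenom* had no count in NSD1B WT and 37 and 25 in NSD1B KO, at least 21.5-fold higher.

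Of 27 genes of ER-associated degradation, which sends misfolded protein to the proteasome, 12 were called higher and 8 lower, with a median of 0.26. *Sel1l* and *Syvn1* encode the adaptor and the ubiquitin ligase of its central complex. *Sel1l* fell by 2.36 on the log2 scale, from 147 and 152 counts to 27 and 29 (adjusted p = 4.99e-12 in edgeR's quasi-likelihood test), while *Syvn1* was not called at 0.28 (standard error 0.15, adjusted p = 0.0788). *Syvn1* was called higher without NSD1B WT replicate 2 (0.39), without NSD1B KO replicate 1 (0.35) and after removal of the length and GC trend (0.72). The lectin-like gene *Os9*, which hands glycoproteins to that complex, had 103 and 82 counts in NSD1B WT and none in NSD1B KO, at least 59.4-fold lower. *Edem2*, which trims mannose from such glycoproteins, went from 428 and 346 counts to 3 and 5, and *Rnf5*, a membrane-bound ubiquitin ligase, from 34 and 19 to 192 and 176.

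Of 30 target genes of ATF4 and CHOP, only 18 had enough counts to be tested, and 6 were called higher and 8 lower (median -0.25). Genes of amino acid supply went both ways. *Psat1* and *Slc7a5* had 78 and 76 and 74 and 68 counts in NSD1B WT and none in NSD1B KO, at least 49.4-fold and 45.6-fold lower, and *Shmt2* fell by 1.43 on the log2 scale. *Psat1* and *Shmt2* encode enzymes of serine and glycine synthesis and *Slc7a5* an amino acid transporter. *Phgdh*, the first enzyme of serine synthesis (0.35), *Mthfd2*, an enzyme of mitochondrial folate metabolism (0.87), and *Slc3a2*, the partner chain of *Slc7a5* (0.65), named after their values were seen, were called higher. *Psph* (-0.36) and *Slc7a1* (-0.38) of the same list, named likewise, were called lower. *Bcl2l11*, the gene of the death protein BIM, rose from 6 and 7 counts to 140 and 136 (log2 fold change 4.44, adjusted p = 1.50e-16 in edgeR's quasi-likelihood test).

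Of the 35 genes of the translocon, signal peptidase and oligosaccharyl transferase, through which new proteins enter the ER and are glycosylated, 14 were called higher and 10 lower, with a median of 0.06. Among those counted in every library, the largest calls in each direction were *Stt3a* and *Srprb*. *Stt3a*, a catalytic subunit of the transferase, fell by 1.82 on the log2 scale (753 and 678 counts against 206 and 185), and *Srprb*, a subunit of the receptor for the signal recognition particle, rose with 3.40 (23 and 25 counts against 265 and 225). *Srp68*, a protein of that particle, had 57 and 53 counts in NSD1B WT and none in NSD1B KO, at least 35.3-fold lower.

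**Figure D4:**
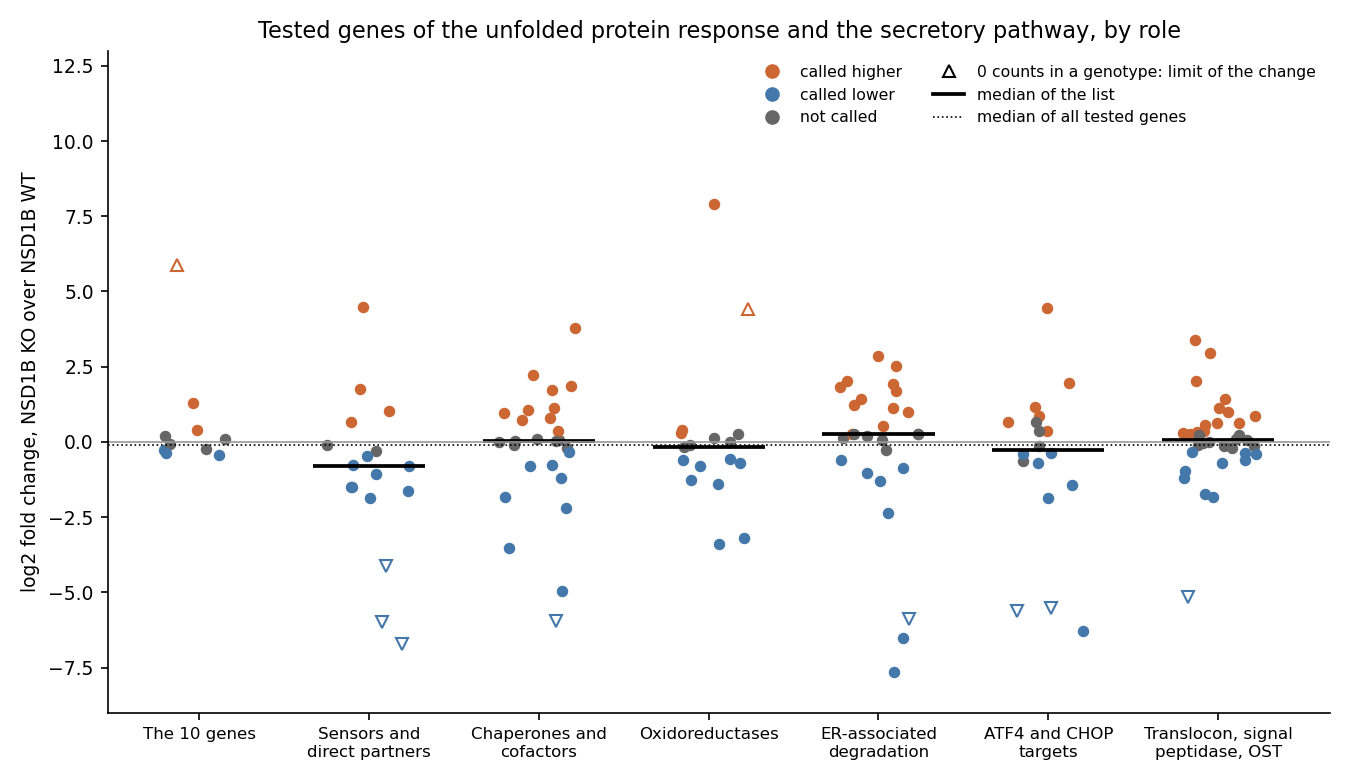
Log2 fold change of NSD1B KO over NSD1B WT for each tested gene of the 10 genes and of the 6 lists, coloured by call, with horizontal lines at the median of each list and a dotted line at the median of all tested genes (-0.10). Open triangles are genes with 0 counts in a genotype, drawn at the limit that 3 counts allow. Each list holds higher and lower genes, and the sensors and direct partners have the lowest median, -0.80.

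The genes that share the ERSE with *Hspa5* were also counted. Of 37 gene symbols with the element, 33 were in the count tables and 14 could be tested, of which 4 were called higher and 6 lower, with a median log2 fold change of 0.11. Without the 3 members, 2 of 11 were called higher and 5 lower (median 0.05). The 2 higher genes were *Calr* and *Dnajc3*. The lower ones were *Canx*, *Pan2*, *Xlr3b*, *Gm6566* and *Ptgdr2*, named here after their values were seen. *Calr*, *Dnajc3* and *Canx* are all ER chaperone genes, so such genes went both ways. *Syvn1*, *Creld2*, *Alg12* and *Hnrnpa3* were not called. After removal of the length and GC trend, *Syvn1* and *Creld2* (0.39) were called higher, and the counts over the 14 genes turned to 6 higher and 5 lower. The turn was shared by all tested genes, which went from 4324 higher and 4795 lower to 4816 and 4214. Of the tested genes with the other elements, 3 of 9 with ERSE-II were called higher and 3 lower, 113 and 131 of 289 with TGACGTG, 87 and 86 of 224 with TGATGNAAN, and 29 and 17 of 56 with TTGCATCA. As shares, 33.3%, 39.1%, 38.8% and 51.8% of these groups were called higher and 33.3%, 45.3%, 38.4% and 30.4% lower, against 37.1% and 41.1% of all tested genes. Their median log2 fold changes were -0.17, -0.17, -0.15 and 0.32, and none of these groups was tested as a set.

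Markers of the plasma cell, in which this pathway is most active, went both ways, with 2 of the 4 tested called higher and 2 lower. Of the 7 markers outside the pathway, *Sdc1*, *Tnfrsf17* and *Cd28* had 0 counts in all libraries. The 7 markers summed to 159.5 and 175 CPM in NSD1B WT and 119 and 123 CPM in NSD1B KO. *Jchain*, which gave most of this sum, fell by 0.54 on the log2 scale, and *Prdm1*, the plasma cell transcription factor BLIMP1, rose from 17 and 21 counts to 59 and 52. *Slamf7* fell by 1.11 on the log2 scale, and *Tent5c* had no count in NSD1B WT and 47 and 45 in NSD1B KO. Their part in the changes of *Hspa5*, *Hsp90b1* and *Xbp1* was not tested.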

How the data were processed

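Sequencing was done on 4 libraries, as described above. Per the study's methods and the labels, the authors mapped paired-end reads to mm10 with Bowtie2 and computed FPKM with Cufflinks, which was not used here, and the deposited files hold whole-number counts per gene, not normalized. Which program counted the reads, with which strand setting and annotation, is not given in the sources used here. Rows that name no gene (no gene 44.3% to 44.6% of all reads tallied, several genes 2.21% to 2.41%, not uniquely mapped 11.2% to 13.2%) stayed out of library sizes.

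Counts were scaled by TMM (factors 0.952 to 1.03) in edgeR 4.0.16 (R 4.3.3). Genes were kept by filterByExpr (minimum count 10, minimum total 15), which left 11657, and the quasi-likelihood test compared NSD1B KO with NSD1B WT with Benjamini-Hochberg adjustment over all of them. Standard errors are the log2 fold change divided by the root of F, and 95% intervals use the t distribution. The test shares the spread between libraries across genes (prior degrees of freedom 45.1). Its p-values and intervals thus rest more on this pooled spread than on that of a gene's own libraries. Exon length and position came from GENCODE M21 (99.5% of identifiers matched), promoters from RefSeq on GRCm38.p6. CPM per kb divides by the length of all annotated exons, whichever isoforms are used. For genes at 0 in a genotype, folds were taken against 3 counts over its 2 libraries.

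Alternatives were other scalings, DESeq2 1.42.0, limma-voom (limma 3.58.1), other filters, each library left out, the replicate number as a block, a loess trend (span 0.5) with exon length and GC content removed, and an adjusted p of 1e-05 with a log2 fold of 0.5. The members, lists and motifs were chosen with earlier results of these data known. Genes named are the members, *Nsd1*, set partners, and in each list the largest called change in each direction (mean log2 CPM of at least 3, counts in each library) and genes at 0 in a genotype with at least 50 counts in the other.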

Additional observations from a re-analysis of the deposited data

How the results depend on the processing

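Each library left out in turn gave 3 members higher and 2 to 3 lower, 8698 to 9223 genes called among all tested, 48 to 53 higher and 51 to 55 lower in the related lists, and 4 to 5 higher and 5 to 6 lower among genes with the ERSE. The count of lower members was 1 with the length and GC trend removed, with or without the replicate block, and 0 at an adjusted p of 1e-05 and a log2 fold of 0.5. At these stricter thresholds 2 members were higher, and of all 11657 tested genes 3199 were called higher and 3468 lower. Removing the length and GC trend moved the median of all genes from -0.10 to 0.10 (a shift of 0.20). Their calls went from 4324 higher and 4795 lower to 4816 and 4214. In this fit *Xbp1* turned to 0.0957 and, with the block, 0.0950 and *Pdia4* to 0.0565 and 0.0537, *Pdia6* (-0.22) lost its call, and *Atf4* gained one. The related lists then had 61 higher and 48 lower (60 and 48 with the block), and the genes with the ERSE 6 and 5. The cause was not tested. With at least 1 CPM in all libraries, 5846 genes were called and 3 genes with the ERSE were lower, fewer genes being tested, and *Ern1* was not tested. Changes near 0 turned sign without a call. Each library left out in turn, *Atf4* ranged from -0.004 to 0.1964, *Pdia4* from -0.2035 to 0.0257, *Dnajb11* from -0.0916 to 0.0920 and *Creld2* from -0.004 to 0.1452. *Dnajb11* was -0.0770 with library size alone, -0.0361 with upper quartile scaling and -0.0372 with the 1 CPM filter, and *Creld2* was -0.0292 with library size alone.

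Of 149 values for the members under the alternatives, 126 kept direction and call, and of 584 for the other named genes, 566. The replicate number as a block left 3 members higher and 3 lower and changed no call among the members. The correlation of same-numbered libraries in their deviation from the group mean was 0.065 over 11657 genes, so the numbers were not taken as pairs. With 2 libraries a genotype, 95% intervals of the uncalled members reach folds of 0.707 to 1.39.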
